A study of Mus musculus with 9 samples.

Results

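The 8 genes described here were Cpt1a, Pdk4, Angptl4, Ehhadh, Vnn1, Acot1, Fgf21 and Pex11a, which the liver is known to switch on through PPAR alpha when food is withdrawn. They were taken by their gene names from a table of read counts for 19686 rat genes, and each name matched 1 gene. 7 of the 8 had enough reads to be tested, and Acot1 did not. The libraries were made from the liver of male Wistar rats, 3 in a control group, 3 in a model group and 3 in a group labelled DSS. The control rats had purified water and saline by gavage. The model rats had a high-fructose drink, for which the study's methods describe 15% fructose water by weight, and saline. The DSS rats had the same drink and 1.8 g/kg of the methanol-in-water extract of Danggui-Shaoyao-San, a herbal formula, which was the extract the study took on to RNA sequencing. Treatment lasted 8 weeks. All rats, the controls included, were fasted for 12 h and anaesthetised before the liver was taken, so every level below is that of a fasted liver, and no fed group was analysed here. Wistar is an outbred stock, and the exact age was not given in the sources used here. The organism field of the labels named the mouse, but the strain field named the rat and the gene identifiers were those of the rat.

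PPAR alpha is a nuclear receptor that binds fatty acids and, paired with RXR, turns on genes for fatty acid use in the liver. In fasting, fatty acids released by adipose tissue reach the hepatocyte, where they are carried into mitochondria and peroxisomes, oxidised and partly made into ketone bodies. The same receptor induces secreted proteins that act on other tissues, and several of its target genes also answer to glucocorticoids, the circadian clock or the amino acid stress response. The comparisons ask how a long fructose load, and the extract given on top of it, were accompanied by different levels of these genes.

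The libraries held between 14345819 and 26837227 counted reads. Values are given as CPM, read counts divided by the size of the library after TMM scaling, which puts the 9 libraries on 1 scale but does not correct for gene length, so levels of different genes are not compared. The 8 hepatocyte markers examined, albumin among them, had reads in every rat, and their summed level was 140942 to 178519 CPM in the control group, 178000 to 225638 in the model group and 175703 to 219409 in the DSS group. Most of that sum is albumin, and Cps1 and Cyp2e1 went the other way: Cps1 was at 3784 to 4453 CPM in control and 2028 to 2985 in model, Cyp2e1 at 1672 to 1987 and 1112 to 1241, both called lower in model by DESeq2 (FDR 0.00454 and 0.00135) and not by edgeR (0.123 and 0.117). Of 3 adipocyte markers matched in the table, Adipoq and Retn were at 0 in all control rats, and the summed level lay between 8.30 and 22 CPM over the 9 rats. The library of model rat 1 stood apart from the others on the second principal component, at -59.3 against -16.6 to 20.1 for the rest. Log2 fold changes of the tested genes among the 8 that include it are therefore also given without it. Those of other genes and lists are given without it where they moved by over 1.5 times, turned or lost a call. Group means, SDs, comparisons of pattern and FDR values over the 3 groups include it. In such bulk samples, fewer cells of a type and less RNA per cell cannot be told apart.

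Each rat had 1 library, and the rats are named by their group and number. Cpt1a stood highest in the DSS group, Angptl4 stood lowest there, and Pdk4, Vnn1 and Pex11a were higher in both fructose-fed groups than in the control group on average. Ehhadh differed little, and Fgf21 varied most within the model and DSS groups.

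**Figure D1:**
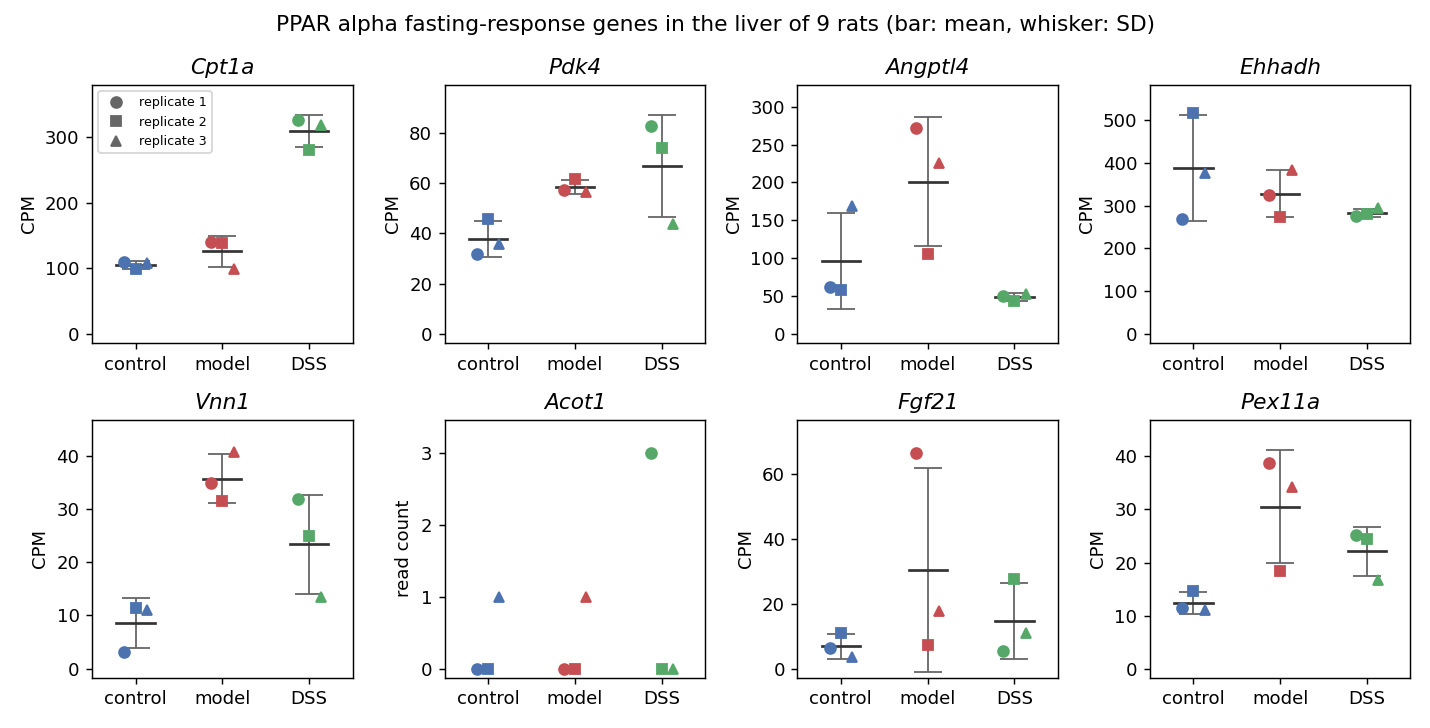
Level of each of the 8 genes in each rat (CPM; read count for Acot1), with the group mean as a bar and the SD as a whisker, n = 3 rats a group. The 3 DSS rats sit at 281 to 327 CPM for Cpt1a and at 42.9 to 52.9 CPM for Angptl4, above and below every other rat respectively.

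Differences were tested with edgeR's quasi-likelihood test across all genes, and a gene was called at a log2 fold change of at least 0.5 in size and a Benjamini-Hochberg false discovery rate (FDR) of at most 0.01. Between the model and control groups, 0 of the 7 genes tested were called, where 0.0801% of 12486 genes were. At an unadjusted p under 0.05 there were 4 (Pdk4, Vnn1, Fgf21 and Pex11a), against 13.2% of all genes, and DESeq2 at the same FDR and fold called 2 (Vnn1 and Pex11a), against 2.05%. Between the DSS and model groups, 0 of 7 were called, where 0.136% of 12502 genes were. 2 had an unadjusted p under 0.05 (Cpt1a and Angptl4), against 8.02%, and DESeq2 called the same pair, against 1.18%. Between the DSS and control groups, Cpt1a was the 1 gene of 7 called, where 1.48% of 12633 genes were, 0.657% as higher. There, 4 had an unadjusted p under 0.05 (Cpt1a, Pdk4, Vnn1 and Pex11a), against 24.3%, and DESeq2 called 3 (Cpt1a, Pdk4 and Pex11a), against 6.09%. At an edgeR FDR of 0.05 and the same fold, 0, 2 and 2 of the 7 were called in these comparisons, where 0.601%, 0.456% and 6.36% of all genes were. Cpt1a was also the 1 gene called in a test over the 3 groups together, with an FDR of 0.000835, where 0.76% of 12897 genes were called.

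The ranges of the groups were compared as well. The 3 model rats lay outside the range of the 3 control rats for 3 of 7 genes, all higher (Pdk4, Vnn1 and Pex11a), where 21.1% of all genes were apart, 11.1% higher and 9.94% lower. The DSS and model ranges did not overlap for 2 of 7 genes, Cpt1a being higher and Angptl4 lower, where 14% of all genes were apart, 6.17% higher and 7.86% lower. The DSS and control ranges did not overlap for 4 of 7 genes, with Cpt1a, Vnn1 and Pex11a higher and Angptl4 lower, where 30.2% of all genes were apart, 14.9% higher and 15.2% lower. With 3 rats a group, the smallest two-sided p of an exact permutation test is 0.1, so that test was not used. The comparison of DSS with model and that of model with control share the model rats, and both comparisons with the control group share the control rats.

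**Figure D2:**
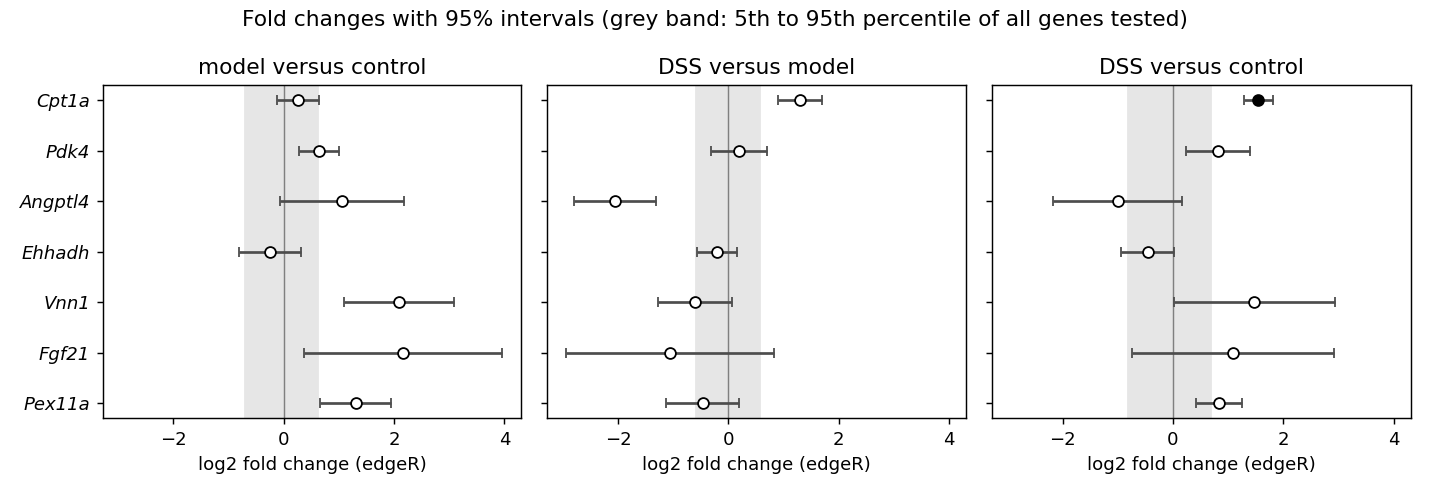
Log2 fold change of the 7 tested genes in each of the 3 comparisons, with the 95% confidence interval as a line and the 5th to 95th percentile of all genes as a grey band; a filled point passed both thresholds. The only filled point is Cpt1a in DSS against control, at 1.55.

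Cpt1a (ENSRNOG00000014254) encodes the enzyme of the outer mitochondrial membrane that joins long-chain fatty acids to carnitine, the step that governs their entry into mitochondria. In order of rat number, it was at 109, 98.7 and 108 CPM in the control rats, 140.1, 138 and 98.4 CPM in the model rats and 327, 281 and 319 CPM in the DSS rats. Every DSS rat was above every other rat, whereas the control and model ranges overlapped because model rat 3 was the lowest of all 9. The group means were 105 ± 5.84 CPM in control, 126 ± 23.6 in model and 309 ± 24.5 in DSS (SD, n = 3).

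Cpt1a rose 2.92-fold from control to DSS, a log2 fold change of 1.55 (SE 0.116, FDR 0.000271). Leaving out any 1 rat kept that log2 fold change between 1.51 and 1.62, with FDR values of 0.000739 to 0.00224. Between DSS and model the fold was 2.47, a log2 fold change of 1.30 (SE 0.172) with an interval of 0.91 to 1.70, and the edgeR FDR was 0.0273, which did not pass 0.01. DESeq2 gave an FDR of 1.51e-08 for the same difference, and without model rat 1 the log2 fold change was 1.39 with an edgeR FDR of 0.0333. Between model and control the log2 fold change of 0.25 had an interval of -0.12 to 0.63 and an FDR of 0.551, and it was 0.15 without model rat 1.

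Pdk4 (ENSRNOG00000009565) encodes a kinase that switches off the pyruvate dehydrogenase complex and so spares glucose carbon while fat is burned. It was at 31.7, 45.8 and 35.6 CPM in the control rats, 57.3, 61.8 and 56.5 CPM in the model rats and 82.7, 73.9 and 43.9 CPM in the DSS rats. The model rats lay close together and above all control rats, while DSS rat 3 fell within the control range and the other DSS rats were the highest of the 9. Between model and control the log2 fold change was 0.63 (SE 0.158, FDR 0.130). Its value between DSS and control was 0.82 (SE 0.247) with an FDR of 0.0947 by edgeR and 0.00910 by DESeq2, which called it. Between DSS and model it was 0.20, with an FDR of 0.883. The group means were 37.7 ± 7.27, 58.6 ± 2.81 and 66.8 ± 20.4 CPM (SD, n = 3) in control, model and DSS.

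Ehhadh (ENSRNOG00000001770) encodes the peroxisomal enzyme that carries out consecutive steps of beta-oxidation and is a classical target of PPAR alpha. The levels were 269, 517 and 377 CPM in control, 324, 274 and 384 CPM in model and 275, 280 and 294 CPM in DSS. All groups overlapped, and the lowest and the highest of the 9 rats were both control rats. The log2 fold change was -0.24 between model and control, with an interval of -0.81 to 0.32, and -0.21 between DSS and model, with an interval of -0.57 to 0.16. It was -0.46 between DSS and control, with an interval of -0.94 to 0.02 and an FDR of 0.225. No difference was detectable in these libraries, and the interval of DSS against control reaches from a fall of 0.94 to a value just above 0. The control mean was 388 ± 124 CPM against 283 ± 9.79 CPM in DSS (SD, n = 3).

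Pex11a (ENSRNOG00000015003) encodes a membrane protein that elongates peroxisomes before they divide. It was at 11.3, 14.7 and 11.1 CPM in the control rats, 38.7, 18.5 and 34.3 CPM in the model rats and 25.2, 24.4 and 16.7 CPM in the DSS rats. Every fructose-fed rat, with or without the extract, was above every control rat, and the model and DSS ranges overlapped. The log2 fold change was 1.31 between model and control (SE 0.280), with an FDR of 0.102 by edgeR and 0.00104 by DESeq2. It was 0.83 between DSS and control (SE 0.184), with an FDR of 0.0302 by edgeR and 0.00237 by DESeq2. Between DSS and model it was -0.46, with an FDR of 0.788. Without model rat 1 the value between model and control was 1.08 (FDR 0.145), and without model rat 2 it was 1.56 (FDR 0.0182).

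Vnn1 (ENSRNOG00000016219) encodes pantetheinase, an enzyme of the cell surface that splits pantetheine into pantothenate, the precursor of coenzyme A, and cysteamine. It was at 3.09, 11.3 and 11.1 CPM in control, 35.0, 31.5 and 40.7 CPM in model and 31.9, 24.9 and 13.4 CPM in DSS. All model rats and all DSS rats exceeded the control rats, DSS rat 3 by the smallest margin, and control rat 1 was the lowest of the 9. Between model and control the fold was 4.25, a log2 fold change of 2.09 (SE 0.433) with an interval of 1.09 to 3.09. That difference had an edgeR FDR of 0.101, and DESeq2 called it with an FDR of 3.24e-05. The log2 fold change was 1.48 between DSS and control (FDR 0.2) and -0.60 between DSS and model (FDR 0.675). The means were 8.50 ± 4.69 CPM in control, 35.7 ± 4.65 in model and 23.4 ± 9.34 in DSS (SD, n = 3).

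Acot1 (ENSRNOG00000055221) encodes a cytosolic thioesterase that frees long-chain fatty acids from coenzyme A. It had 5 reads in all: 1 in control rat 3, 1 in model rat 3, 3 in DSS rat 1 and 0 in the other 6 rats. With 0 reads in a library, up to 3 reads are allowed by counting error alone, which is 0.120 to 0.193 CPM in those 6 libraries, so no fold change was computed. Acot2, a near-identical paralogue in mitochondria whose reads could be shared with Acot1, was at 11.5, 23.2 and 22.1 CPM in control, 38.0, 21.3 and 33.3 CPM in model and 14.6, 18.4 and 15.2 CPM in DSS. All DSS rats were below all model rats for Acot2, with a log2 fold change of -0.94 and an FDR of 0.231. How the counting divided reads between the paralogues was not tested.

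Angptl4 (ENSRNOG00000007545) encodes a secreted protein that inhibits lipoprotein lipase, the enzyme that takes fatty acids out of circulating triglyceride. It was at 61.8, 58.4 and 169 CPM in the control rats, 271, 106 and 225 CPM in the model rats and 49.3, 42.9 and 52.9 CPM in the DSS rats. The DSS rats were the lowest 3 of the 9, and control rat 3 lay within the model range. The means were 96.6 ± 63.2 CPM in control, 201 ± 85.3 in model and 48.4 ± 5.10 in DSS (SD, n = 3).

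Between DSS and model, Angptl4 was 4.14-fold lower in DSS, a log2 fold change of -2.05 (SE 0.323) with an interval of -2.80 to -1.30. The edgeR FDR was 0.0496, short of the 0.01 threshold, and DESeq2 called it with an FDR of 2.46e-08. Without model rat 1 the log2 fold change was -1.77 (FDR 0.141), and without model rat 2 it was -2.36 with an FDR of 0.00430, which passed. Between DSS and control it was -1.0 (FDR 0.265), and this value moved to -0.31 without control rat 3, whose level was far above that of the other control rats. Between model and control it was 1.06 (FDR 0.410), or 1.75 without control rat 3 and 0.76 without model rat 1.

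Fgf21 (ENSRNOG00000020990) encodes a hormone that the fasting liver releases and that acts through FGF receptors with a co-receptor. It was at 6.21, 10.9 and 3.46 CPM in control, 66.5, 7.27 and 17.7 CPM in model and 5.44, 27.7 and 10.9 CPM in DSS. Model rat 1 was above every other rat, model rat 2 lay within the control range, and the 3 groups overlapped one another. The log2 fold change of 2.17 between model and control (SE 0.777, FDR 0.295) became 0.84 (FDR 0.573) without model rat 1. That of -1.06 between DSS and model (FDR 0.830) changed sign to 0.24 without the same rat. The value between DSS and control was 1.09 (FDR 0.423), and it ranged from 0.26 without DSS rat 2 to 1.58 without control rat 2.

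The 7 tested genes therefore did not share 1 order of groups. Means fell in the order DSS, model, control for Cpt1a and Pdk4, model, DSS, control for Vnn1, Fgf21 and Pex11a, model, control, DSS for Angptl4, and control, model, DSS for Ehhadh. Neighbours in that order had ranges apart between DSS and model for Cpt1a, between model and control for Pdk4, between DSS and control for Vnn1 and Pex11a, and between control and DSS for Angptl4. The other neighbours overlapped. Between model and control the log2 fold change was above 0 for 6 of 7 genes, with a median of 1.06 beside -0.00107 over all genes tested. Between DSS and control it was above 0 for 5 of 7, with a median of 0.83 beside -0.00803. Between DSS and model it was above 0 for 2 of 7, with a median of -0.46 beside 0.000778. Without model rat 1 the medians were 0.76 between model and control and -0.21 between DSS and model. Without that rat, the log2 fold change between model and control was 0.63 for Pdk4, 2.09 for Vnn1 and -0.26 for Ehhadh, and that between DSS and model was 0.19 for Pdk4, -0.62 for Vnn1, -0.21 for Ehhadh and -0.25 for Pex11a, none of them called.

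Spread within a group also set the genes apart from one another. The SD of log2 CPM for Fgf21 was 1.60 in the model rats and 1.17 in the DSS rats, larger than in 99.3% and 98.7% of genes. Vnn1 had an SD of 1.05 in the control rats (98.2nd percentile) but 0.19 in the model rats, and Angptl4 had 0.86 in the control rats (96.8th percentile) but 0.15 in the DSS rats. Pdk4 in the model rats (0.07) and Ehhadh in the DSS rats (0.05) were among the tightest genes, where the median gene had 0.29 and 0.20 in those groups. Among the model rats, rat 1 was the highest for 4 of the 7 genes and rat 2 the lowest for 5 of 7, where rat 1 was the highest for 37.7% of all genes and rat 2 the lowest for 33.8%. Control rat 2 was the highest control rat for 5 of the 7, against 34.1% of all genes.

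Cpt1a and Angptl4 were set against each other rat by rat, a pair chosen after their values were seen. The ratio of Cpt1a reads to Angptl4 reads, which needs no scaling between libraries, was 1.77, 1.69 and 0.637 in the control rats, 0.516, 1.31 and 0.438 in the model rats and 6.62, 6.55 and 6.02 in the DSS rats. Control and model rats overlapped in this ratio, and the DSS rats stood together above them. Their place on top was fixed beforehand, since the DSS rats were the highest for Cpt1a and the lowest for Angptl4. On that point the ratio adds nothing to the results of the single genes. Fgf21 was set beside Asns in the same way. Asns encodes asparagine synthetase, a gene known to rise in amino acid shortage, and it was at 3.85, 2.75 and 1.47 CPM in control, 18.0, 22.8 and 31.8 CPM in model and 4.13, 17.9 and 6.25 CPM in DSS. Every model rat was above every other rat for Asns, with a log2 fold change between model and control of 3.13 (FDR 0.0151, DESeq2 FDR 2.18e-16). DSS rat 2 was the highest DSS rat for both Asns and Fgf21, whereas model rat 1, the highest of all for Fgf21, was the lowest model rat for Asns.

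**Figure D3:**
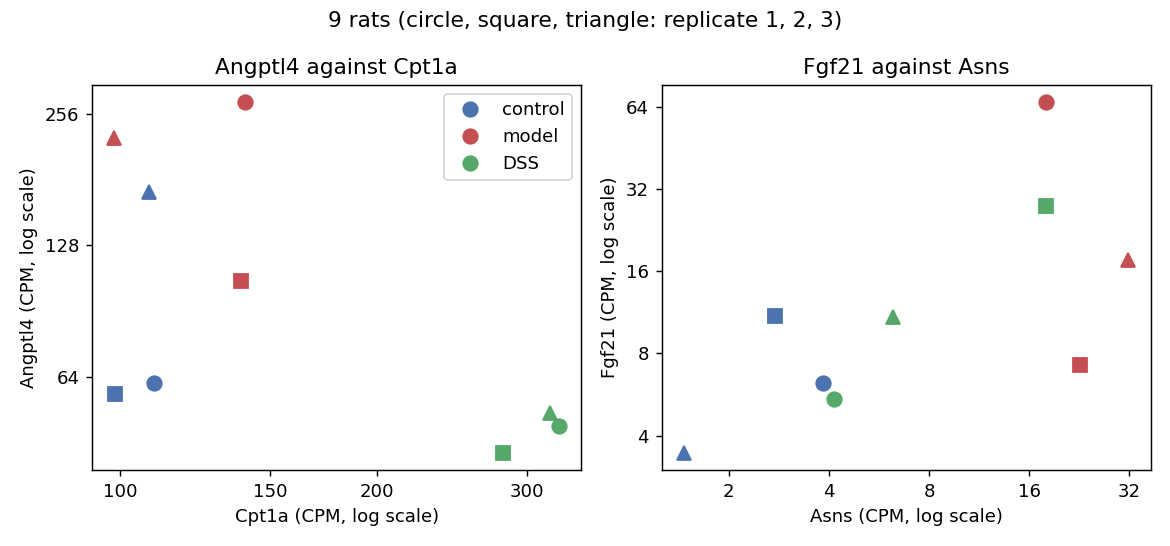
Level in each of the 9 rats (CPM, log axes) of Angptl4 against Cpt1a and of Fgf21 against Asns, coloured by group, 1 point a rat. The DSS rats form a separate corner in the plot of Angptl4 against Cpt1a, which their ranges for each gene alone already fix. Fgf21 in model rat 1 (66.5 CPM) lies above all other points.

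The genes with the most similar pattern were sought among 10095 genes with a mean count of at least 50, by the mean absolute difference of centred log2 CPM over the 9 rats, where 0 would be the same pattern. For Cpt1a they were Cyp3a23/3a1 (0.166) and Ptger3 (0.187), and Cyp3a23/3a1 averaged 613 ± 14.5 CPM in control, 695 ± 286 in model and 1676 ± 60.0 in DSS (SD, n = 3). For Pex11a they were Eci1 (0.177) and Cyp4a3 (0.184), with Eci1 at means of 63.3, 130 and 115 CPM in control, model and DSS. For Vnn1 they were Retsat (0.364) and Ech1 (0.413), with Ech1 at means of 56.2, 147 and 137 CPM, and Pex11a came sixth for Vnn1 at 0.466. For Pdk4 they were Kctd9 (0.0911) and Tbl1xr1 (0.136), for Ehhadh Krt8 (0.106) and Ociad2 (0.112), and for Angptl4 Pdlim2 (0.355) and Tnfrsf9 (0.393). For Fgf21 no gene came nearer than Atf5 (0.595) and AABR07036855.1 (0.597). Among the 7 genes themselves the nearest pair was Pdk4 and Pex11a, at 0.332. Pdk4 ranked 119 among all genes for likeness to Pex11a, but Pex11a ranked 1624 for likeness to Pdk4. The mean absolute deviation of Pdk4 from its own mean was 0.374, so Pex11a was little nearer to it than a flat gene would be. The measure is not adjusted for how much a gene varies.

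The wider pathway was read from 15 lists of genes around these 8, with edgeR calls at the same thresholds and DESeq2 calls beside them. Over all genes, edgeR called 0.0801% between model and control, 0.136% between DSS and model and 1.48% between DSS and control. DESeq2 called 2.05%, 1.18% and 6.09% of all genes in that order, and 13.2%, 8.02% and 24.3% had an unadjusted p under 0.05. The counts of each list are to be read beside these shares. Of the receptors, partners and coregulators, 15 were tested, and edgeR called none between model and control or between DSS and model. DESeq2 called 1 in each, and 3 and 2 had an unadjusted p under 0.05. Ppara itself was at 24.8, 24.2 and 18.4 CPM in control, 8.27, 34.6 and 32.4 CPM in model and 42.3, 24.9 and 37.5 CPM in DSS, and model rat 1 was the lowest of the 9. Its log2 fold change was 0.14 between model and control (FDR 0.919), or 0.56 without that rat (FDR 0.150), and 0.63 between DSS and control (FDR 0.102). Pparg, the adipose-enriched relative of Ppara, rose between DSS and control. It was at 2.17 to 3.13 CPM in control, 3.22 to 4.81 in model and 7.70 to 8.49 in DSS, with a log2 fold change of 1.57 (FDR 0.00295).

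Around Cpt1a, 20 genes of the carnitine shuttle and mitochondrial beta-oxidation were tested. Between model and control edgeR called none and DESeq2 called 1, and 8 had an unadjusted p under 0.05. There, 18 of 20 lay above 0, where 49.9% of all genes did, and 8 had model ranges wholly above control, where 11.1% of all genes had. The median was 0.37, or 0.28 with 15 above 0 without model rat 1. 1 was called between DSS and control, Acad10, an acyl-CoA dehydrogenase family member, which rose by 0.83 on the log2 scale (FDR 0.00475). DESeq2 called 5. 10 of the 20 had DSS ranges wholly above control, where 14.9% of all genes had, and none below, with a median of 0.24. Neither tool called any between DSS and model, and 2 had an unadjusted p under 0.05. The median of -0.06, with 7 above 0, turned to 0.05, with 14 above 0, without model rat 1. Of 5 ketone body genes, Bdh1, which makes 3-hydroxybutyrate, rose between DSS and control by 0.72 (FDR 0.00755), from 305 to 309 CPM in control to 485 to 544 CPM in DSS. Of 9 genes for fatty acid uptake and activation, Acsl5, an acyl-CoA synthetase, fell between DSS and control by 2.19 (FDR 0.00331). In each of the other comparisons edgeR called none of the 9, DESeq2 called 1 and 2 had an unadjusted p under 0.05.

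Around Pdk4, 10 genes of the pyruvate dehydrogenase complex, its kinases and phosphatases were tested. 3 fell between DSS and control: Pdk1, another of the kinases, by 1.11 (FDR 0.000467), and the complex subunits Pdhb by 1.04 (FDR 0.00195) and Dlat by 1.49 (FDR 0.00106). DESeq2 called 4 there. Between DSS and model edgeR called none, DESeq2 called 3 lower, 4 had an unadjusted p under 0.05, and 5 of 10 had DSS ranges wholly below model, where 7.86% of all genes had. Neither tool called any between model and control, and 1 had an unadjusted p under 0.05. The list median was -0.12 between model and control (-0.24 without model rat 1), -0.25 between DSS and model (-0.37 without that rat) and -0.57 between DSS and control, so Pdk4, at 0.82 in the last, lay on the other side of 0 from most of its list.

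Around the peroxisomal genes, edgeR called 0 of 16 genes of peroxisomal and omega oxidation and 0 of 17 genes of peroxisome assembly and division between model and control or between DSS and control. Of the first list DESeq2 called 0 and 3, and 3 and 6 had an unadjusted p under 0.05. Of the other list DESeq2 called none, and 1 and 3 had an unadjusted p under 0.05. Cyp4a2, an omega-hydroxylase from a family of near-identical genes whose reads are uncertain, was at 7.86 to 27.5 CPM in control, 32.4 to 475 in model and 91.7 to 475 in DSS, with a log2 fold change of 3.74 between model and control (FDR 0.130). Abcd2, a peroxisomal transporter of very long-chain fatty acids, had 29, 47 and 15 reads in the control rats and 5, 3 and 6 in the DSS rats. Its log2 fold change of -2.70 between DSS and control (FDR 0.0223) thus rests on few reads. Of 9 other thioesterases, edgeR called none in any comparison. In the order model against control, DSS against model and DSS against control, DESeq2 called 0, 1 and 1, and 2, 4 and 2 had an unadjusted p under 0.05. Of 10 genes of coenzyme A metabolism, edgeR called none either, DESeq2 called 1, 1 and 0, and 4, 3 and 3 had an unadjusted p under 0.05. In the latter list 9 of 10 genes lay above 0 between model and control, where 49.9% of all genes did, with a median of 0.24. Without model rat 1, 6 of 10 did, with a median of 0.19. Ppcs had the largest value, 1.0 (FDR 0.121).

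Around the secreted proteins, edgeR called 0 of 7 angiopoietin-like and lipase genes and 0 of 5 genes for FGF receptors and Fgf1 in any comparison. In the same order of comparisons DESeq2 called 1, 1 and 0 of the 7, and 2, 1 and 2 had an unadjusted p under 0.05. Of the 5, DESeq2 called 1, 0 and 1, and 2, 2 and 1 had an unadjusted p under 0.05. Lpl, the target of Angptl4, was at 1.8 to 4.61 CPM in control, 7.50 to 11.8 in model and 3.94 to 4.55 in DSS. Every model rat exceeded every other rat for Lpl, with log2 fold changes of 1.5 between model and control (FDR 0.116) and -1.11 between DSS and model (FDR 0.141). Of 8 lipid droplet genes, Mgll, a lipase, fell by 0.84 between DSS and control (FDR 0.00679). Plin2, the coat protein of lipid droplets, was at 183 to 249 CPM in control, 125 to 412 in model and 65.8 to 155 in DSS, with a log2 fold change of -0.98 between DSS and control (FDR 0.124).

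**Figure D4:**
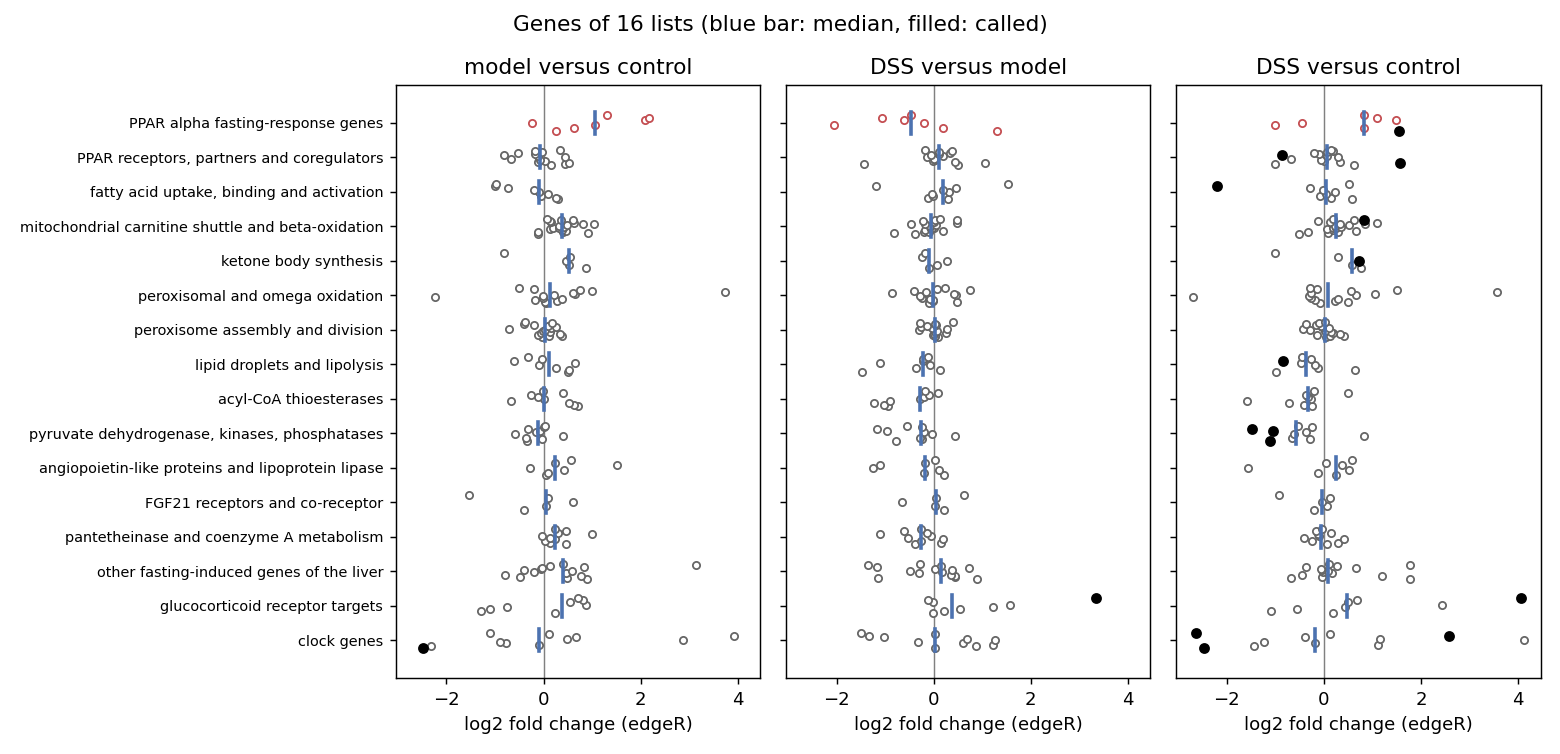
Log2 fold change of every tested gene (points) of the 8 genes' own list and of 15 pathway lists in the 3 comparisons, with the list median as a bar; filled points passed both thresholds. The mitochondrial list has a median of 0.37 between model and control, and the filled points lie mostly in DSS against control.

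Of 15 other genes known to be induced in the fasting liver, Asns among them, edgeR called none in any comparison. DESeq2 called 1 between model and control, 0 between DSS and model and 2 between DSS and control, against 2.05%, 1.18% and 6.09% of all genes. In each comparison 3 had an unadjusted p under 0.05, against 13.2%, 8.02% and 24.3% of all genes. The medians were 0.40 between model and control (0.25 without model rat 1), 0.14 between DSS and model (0.03 without that rat) and 0.08 between DSS and control. Of 11 clock genes, DESeq2 called 3 between model and control, 2 between DSS and model and 8 between DSS and control. Those with an unadjusted p under 0.05 numbered 7, 4 and 8, to be read beside the same shares of all genes. By edgeR, Per2 fell by 2.48 between model and control (FDR 0.00176), and it fell by 2.46 between DSS and control (FDR 1.87e-05). In the latter comparison Cry1 fell by 2.63 (FDR 0.000289) and Npas2 rose by 2.59 (FDR 0.00373). Their model and control ranges were apart as well, though edgeR called neither there. Cry1 was at 24.7 to 33.3 CPM in control, 9.94 to 19.1 in model and 3.62 to 5.93 in DSS. Npas2 was at 1.2 to 2.63, 15.1 to 33.6 and 8.48 to 12.9 CPM, a rise of 3.92 between model and control. Nr1d1 had the largest rise between DSS and control, 4.12, which edgeR did not call. It was at 2.03 to 8.54, 13.2 to 81.7 and 83.8 to 105 CPM. Of 8 glucocorticoid targets, Mt1, a metallothionein that also answers to metals, rose by 3.35 between DSS and model (FDR 0.00266, or 3.44 and 0.0279 without model rat 1, no longer called) and by 4.05 between DSS and control (FDR 0.00747). edgeR called no other of the 8. DESeq2 called 1 lower between model and control and 1 higher in each of the other comparisons. In the same order 3, 2 and 2 had an unadjusted p under 0.05, and 5, 5 and 6 lay above 0. Tsc22d3 had the largest fall between model and control, -1.28, and between DSS and control, -1.08. It was at 41.2 to 67.9 CPM in control, 20.8 to 27.2 in model and 13.1 to 44.3 in DSS. Leukocyte markers summed to 180 to 389 CPM in control, 132 to 298 in model and 190 to 251 in DSS. All 4 markers of proliferating cells, which are low here, had DSS ranges wholly below model, where 7.86% of all genes had. Their median log2 fold change was -1.69, and they summed to 5.52 to 12 CPM in model and 0.925 to 3.93 CPM in DSS. Neither edgeR nor DESeq2 called any, and 4 had an unadjusted p under 0.05, against 8.02% of all genes. The part of the clock, of glucocorticoids or of cell makeup in the levels of the 8 genes was not tested.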

How the data were processed

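Liver mRNA of 9 rats was sequenced, 3 a group, and groups came from the sample titles. Per the submitters' processing notes and the study's methods, HISAT2 placed the reads on Rnor_6.0 and HTSeq 0.6.1 assigned them to gene exons with its unstranded setting. The deposited table holds raw read counts per gene, with no normalization. A table of new transcripts was not used.

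Counts were analysed in R 4.3.3 with edgeR 4.0.16. For each comparison the 6 libraries were filtered with filterByExpr, normalized by TMM and tested with the robust quasi-likelihood fit, two-sided, with Benjamini-Hochberg adjustment over all genes tested. CPM were computed over the 9 libraries. DESeq2 1.42.0, other normalizations and filters, a replicate block, a pooled fit and leaving out each rat were alternatives. Confidence intervals of fold changes are 95%, and the allowance of 3 reads behind a count of 0 covers counting error only. The numbers of the libraries did not pair the rats. No 2 libraries held the same values: at most 1.82% of genes had equal counts in any pair. The labels number the libraries of a group and the study used separate animals, so p-values measure the spread between those samples. The code was tested on simulated counts.

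Beside the 8 genes, the text names pathway genes that were called or had the largest rise or fall of their list (some are not reported here), and for each of the 8 the 2 genes most alike in pattern. Ppara was added after its values were seen. The 8 genes and the lists were chosen with earlier results of these data known. 8 of 182 names on the pathway lists matched no gene in the table. No coordinates or sequences are given, because the reference used here was not of the rat.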

Additional observations from a re-analysis of the deposited data

How the results depend on the processing

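Cpt1a in DSS against control passed the thresholds under every alternative run. The number of the 7 tested genes called changed mainly with the tool and the thresholds. DESeq2 called 2 between model and control, 2 between DSS and model, 3 between DSS and control and 4 over the 3 groups together (Cpt1a, Angptl4, Vnn1 and Pex11a). Of all genes it called 2.05%, 1.18% and 6.09% in the pairwise comparisons. Its share of all genes over the 3 groups together was not counted, so the 4 cannot be set beside it. Without a filter on low counts 1 was called between DSS and model (Cpt1a) and 2 between DSS and control (Cpt1a and Pex11a). Fitting all 9 libraries together called 1 between DSS and model (Cpt1a), where 7 of 12897 genes were called higher and 13 lower. An FDR of 0.05 called 2 between DSS and model (Cpt1a and Angptl4) and 2 between DSS and control (Cpt1a and Pex11a). Leaving out each rat in turn gave 0 to 1 called between DSS and model and 1 to 2 over the 3 groups, the higher number in each without model rat 2. Without that rat, 3 of 12725 genes were called higher and 9 lower between DSS and model. The share of all genes over the 3 groups was not counted in any fit that left out 1 rat. Genes whose ranges did not overlap then numbered 3 to 5 between model and control, 2 to 5 between DSS and model and 4 to 5 between DSS and control, an alternative chosen after seeing the data. Both counts of 5 in the comparisons with model rats came without model rat 2, where 36% and 29.5% of all genes were apart, and between DSS and control 37.2% to 42.2% of all genes were apart over these fits. The log2 fold change of Ehhadh between model and control ranged from -0.45 to 0.019 over these fits, and its sign turned without control rat 2. For Fgf21 between DSS and model it ranged from -1.90 to 0.24, and its sign turned without model rat 1. The cause of these changes was not tested.

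With the replicate number as a block, the genes called were 0, 0 and 1 in the 3 comparisons and 1 over the 3 groups, so no call among the 7 changed. Deviations of same-numbered rats correlated at -0.232 to -0.0206, so the numbers were not read as pairs. Over all genes the block gave 0, 7 and 104 calls between model and control, DSS and model, and DSS and control, against 10, 17 and 187 without it. DESeq2 gave 256, 147 and 769, and no filter 71, 38 and 489. Scaling by library size alone moved the median of all genes by -0.14 in both comparisons with control and turned the split of calls in DSS against control from 83 higher and 104 lower to 57 higher and 181 lower. With 3 rats a group, the spread between rats limits what can be called. Acot1, with 5 reads in all, did not pass the filter on low counts. Without that filter its edgeR FDR over the 3 groups was 0.858, which rests on those few reads.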
